A study of Mus musculus with 16 samples.

Results

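The CCN family is a small set of secreted proteins of the extracellular matrix. Of these genes, 5 were followed here (*Ccn1*, *Ccn2*, *Ccn3*, *Ccn4* and *Ccn5*), out of 29629 Ensembl genes in a single-cell table and 47729 in a bulk table. They were selected by matching Ensembl identifiers to gene symbols, and they were chosen with earlier results of these data known, both over the time course and between genotypes. Their levels over time and between genotypes are therefore given as a description. *Ccn6*, the remaining family member, was outside the selection and is named only where it has counts.

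The single cells came from *ScxGFP* iPSCs, pluripotent cells reprogrammed from mouse embryonic fibroblasts that carry GFP under *Scx* regulatory sequence, which were kept on feeder cells in 2i LIF medium. T0 cells were mesodermal cells induced from these iPSCs with the Wnt agonist CHIR and the Hedgehog inhibitor cyclopamine, before any TGF-β2. Both compounds had been withdrawn before T0, for 1 or 2 days of recovery and then a day with less serum. T3, T6 and T9 cells had then been cultured for 3, 6 and 9 days with TGF-β2 at 10 ng/ml. Each time point was sorted into 3 plates of 384 wells, with 1 cell a well, and sequenced by CEL-Seq2, which counts each captured mRNA molecule once by a unique molecular identifier (UMI). Day and TGF-β2 cannot be told apart, because no plate without TGF-β2 was sampled after T0. Neither can the digestion of the cells, which used trypsin at T0 and collagenase followed by trypsin later. The bulk samples were Achilles tendons of 2-week-old littermates, 2 wild-type (Scx_Wt) and 2 homozygous for an *Scx* knockout (Scx_homoKO). Nothing in the labels says that the 3 plates of a time point came from separate cultures, so the spread between plates may be technical.

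CCN proteins bind integrins, heparan sulfate proteoglycans and LRP receptors, and they modulate growth factors such as TGF-β, BMP and Wnt proteins in the space around the cell. Most of them carry the same series of modules, an IGFBP-like, a von Willebrand factor type C, a thrombospondin type 1 and a carboxy-terminal cystine-knot domain, and *Ccn5* lacks the last of these. *Ccn1* (formerly *Cyr61*) and *Ccn2* (formerly *Ctgf*) are textbook targets of the YAP/TAZ coactivators with TEAD factors and of SRF with MRTF, and *Ccn2* is also induced by TGF-β. *Ccn3* (formerly *Nov*) often opposes *Ccn2* in fibrotic settings, and *Ccn4* (formerly *Wisp1*) and *Ccn5* (formerly *Wisp2*) were named for their response to Wnt signals. In tendon, *Ccn1* and *Ccn2* are known as genes that respond to mechanical load.

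All of the genes have short coding sequences, and *Ccn4* spans the longest stretch of chromosome. In the Ensembl annotation of GRCm38, *Ccn1* (ENSMUSG00000028195) lies at chr3:145646976-145649981 on the minus strand and codes for 379 codons, stop not counted. *Ccn2* (ENSMUSG00000019997) lies at chr10:24595442-24598683 and codes for 348, and *Ccn3* (ENSMUSG00000037362) lies at chr15:54745702-54754039 and codes for 354. *Ccn4* (ENSMUSG00000005124) lies at chr15:66891320-66923201 and codes for 367, and *Ccn5* (ENSMUSG00000027656), at chr2:163820861-163833146, codes for 251. The last 4 are on the plus strand. Coding sequence is split over 5 exons in *Ccn1* to *Ccn4* and over 4 in *Ccn5*, the member without the carboxy-terminal module. A gene on the opposite strand, *Gm15270*, overlaps *Ccn2*, and the strand setting of the counting is not given in the sources used here.

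A promoter sequence was at hand for 1 of the 5 members, *Ccn1*. It is shown because *Ccn1* is a well known target of TEAD and because its RNA was found in more cells than that of any other member at every time point. The 250 bases before the RefSeq start (GRCm38.p6, chr3:145649986-145650235, minus strand) are given 5′ to 3′, with letters of searched motifs in capitals.
Ccn1: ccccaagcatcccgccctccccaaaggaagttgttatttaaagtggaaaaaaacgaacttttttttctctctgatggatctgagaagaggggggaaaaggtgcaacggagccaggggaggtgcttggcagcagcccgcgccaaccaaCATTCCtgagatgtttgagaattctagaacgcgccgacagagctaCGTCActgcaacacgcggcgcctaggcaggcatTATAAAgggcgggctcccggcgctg
The first capitals, CATTCC, are GGAATG read on the other strand, the core that TEAD factors bind, and they begin 103 bases before the start. GGAATG on either strand was present in 12.6% of 32851 RefSeq promoter windows of the same length. CGTCA, which is the cAMP response element core TGACG on the other strand, begins 58 bases before the start, and that motif on either strand was in 17.8% of windows. TATAAA, searched on the gene's strand, begins 25 bases before the start and was in 7.59% of windows. The CArG box of SRF, searched by its name pattern on both strands, had no match in this window of *Ccn1* and was in 1.47% of windows. None of the matches overlap each other, and a match is a run of letters and not a measured binding site.

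Plates held between 1921125 and 4657093 UMIs in 4594 wells with at least 200 detected genes, of 4608 wells. Median UMIs per cell ranged from 9031 to 11492 in the T0 plates, from 4575 to 7039.5 at T3, from 7724 to 10097 at T6 and from 7238 to 9146 at T9. All plates used the same 384 well barcodes, so a barcode shared between plates marks a well position and not a cell. Bulk libraries held between 11188270 and 12398560 counts. Levels are in CPM (counts per 1000000, here a gene's UMIs against all UMIs of the plate or kind of cell). The summed level of 10 tendon genes was 449 to 545 CPM in T0 plates. It was 5527 to 11088, 10876 to 24837 and 15748 to 42831 CPM at T3, T6 and T9. Much of this was collagen: cells without *Tnmd* in T9 plate 3 had 19995 CPM of *Col1a1* and 17848 CPM of *Col1a2*. *Scx* averaged 9.51, 734, 564 and 162 CPM from T0 to T9, and *Tnmd* 0, 8.60, 68.7 and 106 CPM. Plates differed in a technical measure, the share of reads outside any annotated feature. It was 9% or more in all T0 plates, T3 plate 2, T6 plates 1 and 3 and T9 plate 3, and lower in the other 5. Cells with pluripotent or epithelial markers were most frequent at T0. Each T0 plate held 20 to 60 cells with 3 or more of 8 pluripotent markers and 29 to 40 with 3 or more of 6 epithelial markers. Later plates held 0 to 10 for either list. Cells with 3 or more of 7 parietal endoderm markers numbered 1, 2 and 2 in the T0 plates and 0, 1 and 0 at T3. They numbered 12, 1 and 13 at T6 and 12, 11 and 6 at T9. At T3, 6 of 6 epithelial markers and 1 of 6 tested pluripotent markers were called lower than at T0, beside 16.2% of all genes. Of 6 tested parietal endoderm markers, 5 were called higher at T6 than at T3, beside 2.61% of all genes. Values within each side of this split of plates are given for some steps of the members, and for none of the pathway lists. The part of the split in the results was not tested.

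*Ccn1* was present in the mesodermal cells at the outset and was higher in every later plate. In the 3 T0 plates its level was 193.0, 205.4 and 202.9 CPM. At T3 it was 375.8, 567.8 and 486.1 CPM, at T6 854.6, 482.3 and 654.1 CPM, and at T9 668.4, 637.8 and 1259.2 CPM. The means were 200 ± 6.53, 477 ± 96.3, 664 ± 186 and 855 ± 350 CPM (SD, n = 3 plates each). The T0 plates lay below all others and the T3 plates below those of T9, while the ranges of T3 and T6 and those of T6 and T9 overlapped. T9 plate 3, the 1 T9 plate on the side with more reads outside features, was also the highest of all 12. Between T9 and T6 the log2 ratio of mean CPM was 0.74 on that side and 0.44 on the other.

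*Ccn2*, the member most closely tied to TGF-β in other tissues, was lower than *Ccn1* in UMIs but was higher at each successive time point without overlap between plates. Its level was 33.7, 37.3 and 36.9 CPM at T0 and 81.2, 80.3 and 81.5 CPM at T3. It was 176.9, 117.7 and 149.1 CPM at T6 and 235.5, 291.6 and 414.2 CPM at T9. The pooled level was 2.26 times as high at T3 as at T0, 1.85 times as high at T6 as at T3 and 2.05 times as high at T9 as at T6. Without the 276 cells that carried 3 or more markers of another lineage, the fitted log2 fold change of T3 against T0 was 2.44, against 1.41 with all cells. Within the side with more reads outside features the log2 ratio was 1.16, 1.02 and 1.35 for these steps, and within the other side 0.53 and 1.16 for the steps after T3.

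*Ccn4* had few UMIs before TGF-β2 and many at T3. Its level was 11.4, 11.1 and 4.57 CPM in the T0 plates and 192.1, 313.9 and 254.0 CPM in those of T3. Later plates had 454.3, 248.2 and 441.7 CPM at T6 and 211.3, 188.8 and 444.4 CPM at T9. The pooled level was 27.9 times as high at T3 as at T0 and 0.704 times the T6 level at T9. Plates of T3, T6 and T9 overlapped, and the log2 ratio of T9 to T6 within the sides of the split was -0.01 and -0.31.

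Apart from *Ccn5*, *Ccn3* was found in the smallest share of cells, and most of its UMIs were at T9. Over all 3 T0 plates it had 5 UMIs in 4 cells, and over the T3 plates it had 0 of 7505207 UMIs, which allows a level of up to 0.400 CPM (a limit of 3 UMIs, for counting error only). It was at 5.89, 2.86 and 2.85 CPM in the T6 plates and at 71.7, 47.2 and 70.3 CPM in the T9 plates. That is 16.2-fold between T6 and T9, and at least 159-fold between T3 and T9. All T9 plates lay above all T6 plates, and the log2 ratio was 4.01 and 4.38 within the sides of the split. *Ccn5* had 1 UMI in all 12 plates, in T3 plate 2, against limits of 0.236 CPM at T0, 0.267 CPM at T6 and 0.306 CPM at T9. *Ccn6* had 4 UMIs.

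**Figure D1:**
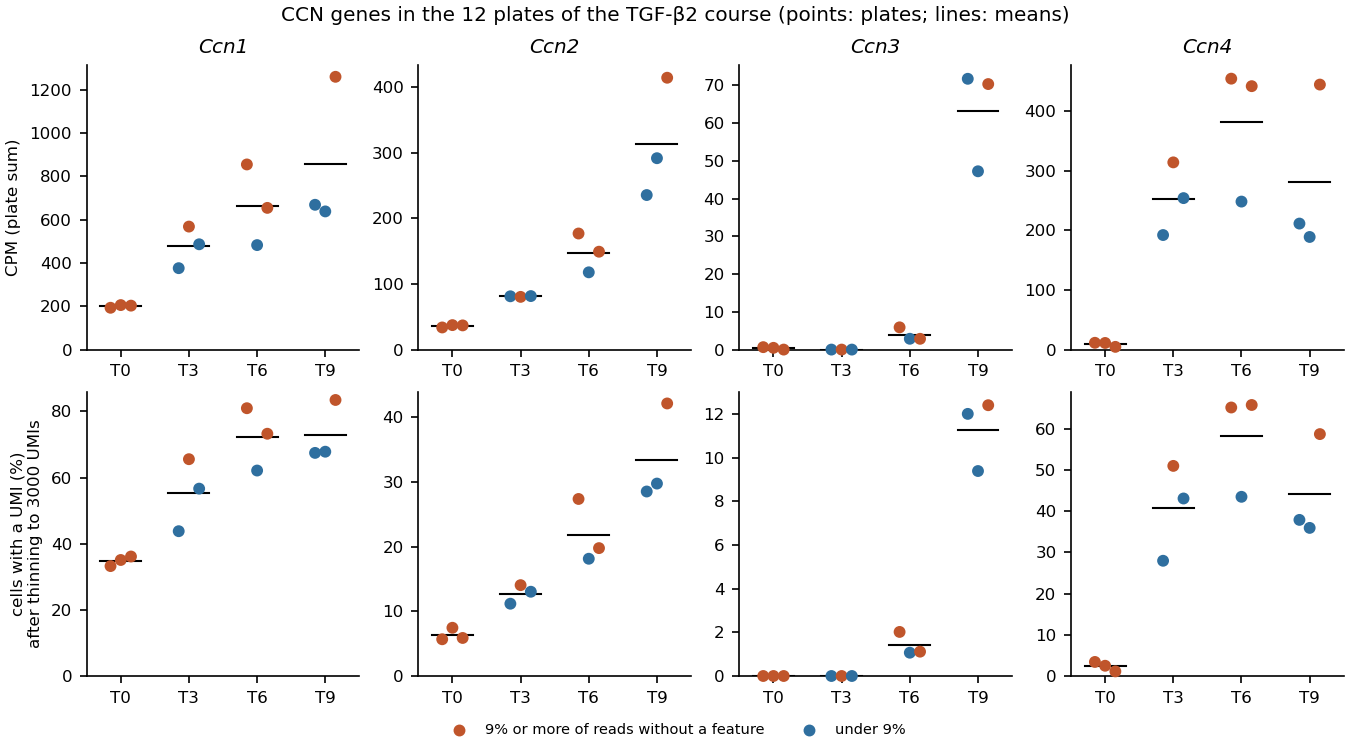
Levels of *Ccn1*, *Ccn2*, *Ccn3* and *Ccn4* (top row, CPM of the plate sum) and the share of cells with at least 1 UMI after thinning each cell to 3000 UMIs (bottom row, percent) in each plate at T0, T3, T6 and T9. Points are plates, colored by the share of reads outside annotated features, and lines are means of 3 plates. *Ccn4* sits between 4.57 and 11.4 CPM at T0 and at 188.8 CPM or more in every later plate, whereas *Ccn3* stays at or under 5.89 CPM until T9.

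A fit of edgeR over all 13372 genes tested, with all 12 plates, called 3 of the 4 tested members higher at T3 than at T0. These were *Ccn1*, with a log2 fold change of 1.46 ± 0.19 (SE), *Ccn2*, with 1.41 ± 0.18, and *Ccn4*, with 5.01 ± 0.32. Over all genes, 17.0% were called higher and 16.2% lower. Between T3 and T6, *Ccn2* (0.86 ± 0.17) and *Ccn3* were called higher, *Ccn1* (0.49 ± 0.19) and *Ccn4* (0.59 ± 0.26) were not, and 2.61% of all genes were called higher and 1.63% lower. *Ccn2* was no longer called in that step without T6 plate 1 (0.77), with cells thinned to 3000 UMIs (0.84) or with only the 6 plates compared (0.83). Between T6 and T9, *Ccn2* (1.31 ± 0.17) and *Ccn3* (4.28 ± 0.35) were called higher, while *Ccn1* had 0.58 ± 0.19 and *Ccn4* -0.23 ± 0.26. The *Ccn1* difference was called by edgeR with the library split as a covariate (0.65, adjusted p = 0.00859) and by DESeq2 (0.60, adjusted p = 0.0214), but under none of the other alternatives. In that step 0.935% of all genes were called higher and 0.688% lower. From T0 to T9 all 4 tested members were called higher, beside 23.6% of all genes, and 21.6% were called lower. The log2 fold changes over the whole course were 2.53 ± 0.20 for *Ccn1*, 3.58 ± 0.19 for *Ccn2*, 7.69 ± 0.47 for *Ccn3*, which rests on 5 UMIs at T0, and 5.37 ± 0.33 for *Ccn4*. The value for *Ccn2* was 4.58 without the cells of other lineages. Since the members were chosen with these contrasts known, nothing is read from their counts against the background.

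The share of cells with a UMI followed the levels. After thinning every cell to 3000 UMIs (4301 cells kept), *Ccn1* was found in 34.8% ± 1.47, 55.3% ± 10.9, 72.1% ± 9.47 and 72.9% ± 9.14 of cells from T0 to T9 in order (SD, n = 3 plates). *Ccn2* was found in 6.34% ± 0.973, 12.8% ± 1.45, 21.8% ± 4.93 and 33.5% ± 7.53. For *Ccn4* the shares were 2.34% ± 1.15, 40.7% ± 11.7, 58.1% ± 12.7 and 44.2% ± 12.6. *Ccn3* was found in none of the thinned cells at T0 and T3, in 1.40% ± 0.536 at T6 and in 11.3% ± 1.64 at T9. Without thinning, the T9 shares were 86.9%, 51.2%, 18.7% and 63.5% for *Ccn1*, *Ccn2*, *Ccn3* and *Ccn4*. Cells at T3, which had 0 of 1151 with *Ccn3* at a lower depth, and cells at T0, which had 0.349% at a higher depth, serve as the background for the 18.7%.

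Members differed in how evenly their UMIs were spread over cells. At T9 and at 3000 UMIs per cell, the tenth of cells with the most *Ccn1* held 34.3% ± 5.06 of its UMIs, and the same share was 45.5% ± 3.15 for *Ccn4* and 62.8% ± 7.23 for *Ccn2* (SD, n = 3 plates). The Fano factor, the variance of UMIs per cell over their mean, was 4.48 ± 1.89 for *Ccn2*, above 2.94 for *Ccn1*, 2.22 for *Ccn3* and 1.78 for *Ccn4*, although the *Ccn2* values of the plates were wide. At this depth single cells reached 28 UMIs of *Ccn2*, 21 of *Ccn1*, 12 of *Ccn4* and 6 of *Ccn3*. Without thinning, the highest *Ccn3* count in a T9 cell was 25, and 37 cells held 305 of its 623 UMIs. *Ccn2* was thus carried by fewer and richer cells than *Ccn4*, a gene of similar total level at T9.

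Within a plate, *Ccn2* was found more often in cells that also held *Ccn1*. At T3 it was in 16.9% ± 0.375 of *Ccn1*+ cells and in 7.71% ± 0.967 of *Ccn1*- cells, at T6 in 24.9% ± 4.19 and 13.4% ± 4.45, and at T9 in 38.8% ± 7.58 and 17.1% ± 2.58 (SD, n = 3 plates, cells at equal depth). The share was higher in *Ccn1*+ cells in 3 of 3 plates at each of these times. *Ccn4*+ cells at T9 held *Ccn2* in 39.3% ± 8.09 and *Ccn4*- cells in 28.3% ± 4.87, again higher in 3 of 3 plates. *Ccn3*, found in fewer cells, differed by fewer percentage points between the kinds of cell. It was in 11.6% ± 1.60 of *Ccn1*+ and 11.1% ± 3.50 of *Ccn1*- cells, higher in 2 of 3 plates, and in 9.42% ± 3.05 of *Ccn4*+ and 12.5% ± 1.07 of *Ccn4*- cells, lower in 3 of 3. By *Ccn2*, its share was higher in the *Ccn2*+ cells of 1 plate. Cells of a plate are not replicates, so these shares carry no test.

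**Figure D2:**
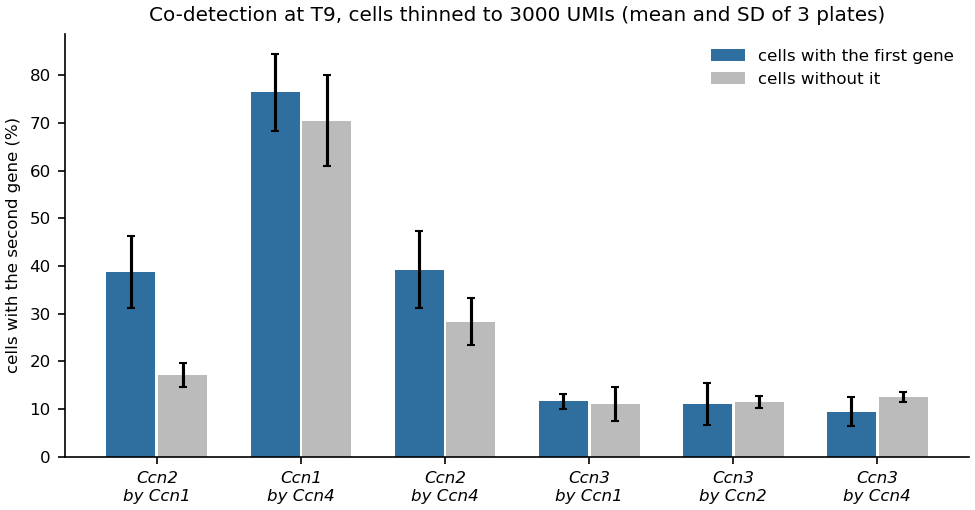
Share of T9 cells (percent, after thinning to 3000 UMIs) that held a second CCN gene, among cells with the first gene (blue) and without it (gray). Bars are means and error bars SDs of 3 plates. *Ccn2* was in 38.8% of *Ccn1*+ cells and 17.1% of *Ccn1*- cells, while the *Ccn3* bars are low in every pair and differ by fewer percentage points.

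Over the 12 plates, the 4 genes with enough UMIs kept different company. On log2 (CPM + 1), Pearson's r between members ran from 0.423 for *Ccn3* with *Ccn4* to 0.935 for *Ccn1* with *Ccn2*. The genes whose pattern was most like *Ccn1* were *Lman1* (r = 0.985), a cargo receptor between the endoplasmic reticulum and Golgi, *Inhba* (0.983), the activin A subunit, and *Fkbp9* (0.982), a prolyl isomerase of the endoplasmic reticulum. Most like *Ccn2* were *Sfrp2* (0.986), a secreted Wnt modulator, *Pigk* (0.974), part of the GPI transamidase, and *Srpx* (0.971). *Ccn3* was most like *Itgbl1* (0.988), *1500015O10Rik* (0.968) and *Col15a1* (0.966), a basement membrane collagen, all of them genes under 0.3 CPM at T0 and T3 and near 20 CPM at T9. *Ccn4* was most like *Efna3* (0.994), *Egfl6* (0.993) and *Myadm* (0.992), of which *Egfl6* averaged 1.98 CPM at T0, 189 CPM at T3, 217 CPM at T6 and 127 CPM at T9. The plates share the steps of one time course, so high values of r are common and carry no p.

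Genes of the pathways that the family is known to sit in were taken from lists fixed for this work, without the members themselves. The background for each count is the share over all genes. It was 17.0% higher and 16.2% lower at T3 against T0, and 23.6% and 21.6% at T9 against T0. For T6 against T3 it was 2.61% and 1.63%, and for T9 against T6 0.935% and 0.688%. The TGF-β response list had the highest median of the 6 pathway lists in the first step, with 5 of 8 tested genes higher at T3 than at T0 and none lower by edgeR. *Bhlhe40* rose by 3.82 ± 0.23 on the log2 scale (adjusted p = 3.48e-08) and *Pmepa1*, a feedback inhibitor of SMAD signaling, by 3.08 ± 0.22 (adjusted p = 1.78e-07). The list median was 1.10, against 0.01 over all genes. At T9 against T6, 2 of its 8 genes were lower and none higher, *Pmepa1* (-0.95 ± 0.20, adjusted p = 0.0312) and *Skil* (-0.80 ± 0.18, adjusted p = 0.0448), while *Ccn2* was still higher. These and all other adjusted p-values are from the edgeR quasi-likelihood test with Benjamini-Hochberg adjustment over all genes tested.

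Among YAP/TAZ targets other than the CCN genes, 8 of 20 were higher and 3 lower at T3 than at T0. Over all genes it was 17.0% and 16.2%, and the list median was 0.11. *Igfbp3* rose by 2.45 ± 0.25 (adjusted p = 6.79e-06) and *Foxf2* by 2.56 ± 0.69 (adjusted p = 0.0119), the latter on 7 UMIs at T0 and 23 at T3. The lower genes included the phosphatase *Ptpn14* (-1.47 ± 0.35, adjusted p = 0.00536) and *Asap1* (-1.04 ± 0.25, adjusted p = 0.00565). None of the 20 was called between T3 and T6. At T9 against T6, *Gadd45a* (1.60 ± 0.25, adjusted p = 0.0067) and *Amotl2* (1.09 ± 0.19, adjusted p = 0.0146), an angiomotin that binds YAP, were higher and *Fjx1* (-1.43 ± 0.25, adjusted p = 0.0146) was lower. Over the whole course 11 of 20 were higher and 1 lower, and the list median was 0.83 against -0.02 over all genes.

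The Hippo pathway and TEAD factors themselves went both ways. At T3 against T0, 3 of 16 were higher and 6 lower, beside 17.0% and 16.2% of all genes, with a list median of -0.52. *Wwtr1*, which encodes TAZ, rose by 1.34 ± 0.22 (adjusted p = 0.000356), and the kinase gene *Stk3* rose by 0.75 ± 0.26 (adjusted p = 0.0401). *Vgll3*, a TEAD cofactor, had -2.34 ± 0.40 (adjusted p = 0.000571) and *Tead4* -1.96 ± 0.65 (adjusted p = 0.0333), from 55 UMIs at T0 to 7 at T3. None of the 16 was called in the steps from T3 to T6 or from T6 to T9.

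SRF/MRTF targets are mostly genes of contractile cells. Of 13 tested, 6 were higher at T3 than at T0, and between T3 and T6 again 6 were higher and none lower, where the list median was 1.11 against 0.03 over all genes. *Acta2*, smooth muscle actin, rose by 1.63 ± 0.26 in the first step (adjusted p = 0.00035), as did *Actg2* by 4.65 ± 0.59 (adjusted p = 4.56e-05), which had 4 UMIs at T0. *Cnn1* (1.83 ± 0.39, adjusted p = 0.0159) and *Tagln* (1.51 ± 0.26, adjusted p = 0.00505) led the second. Between T6 and T9 only *Fhl2* (1.23 ± 0.26, adjusted p = 0.0355) was called, and 9 of 13 were higher over the whole course. The smooth muscle marker list, which shares *Acta2*, *Tagln*, *Cnn1* and *Lmod1* with it, summed to 276 to 604 CPM in T0 plates and to 2292 to 3495 CPM in T9 plates.

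Of the CCN receptors and partners, 2 of 11 were higher and 2 lower at T3 than at T0, shares close to the 17.0% and 16.2% over all genes. *Fn1*, fibronectin, rose by 2.27 ± 0.27 (adjusted p = 2.61e-05) and *Itgb8*, a subunit of an integrin that activates latent TGF-β, by 2.03 ± 0.43 (adjusted p = 0.0028). *Itga6* (-3.29 ± 0.30, adjusted p = 2.44e-06), a laminin receptor subunit, and *Itgav* (-1.18 ± 0.19, adjusted p = 0.000295) were lower. *Itgb3* was higher at T6 than at T3 (3.28 ± 0.65), none of the 11 was called between T6 and T9, and over the course 8 were higher and 1 lower. Wnt/β-catenin targets had 1 of 9 higher, the receptor gene *Lgr5* (4.15 ± 0.35, adjusted p = 1.19e-06), and 4 lower at T3, among them *Lef1* (-3.55 ± 0.60, adjusted p = 0.000486) and *Dkk1* (-2.64 ± 0.83, adjusted p = 0.0257). At T9 against T0, 6 of the 9 were lower and 2 higher.

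Whether the members sat in the cells that carried tendon genes was asked by splitting the cells of each plate, which the selection had not used. *Scx*, the transcription factor that marks tendon progenitors, was present in 933 of 1151 cells at T3 and in 447 of 1147 at T9. *Tnmd*, tenomodulin, a marker of maturing tendon cells, was present in 147 cells at T6 and 155 at T9. UMIs of the positive and negative cells were summed per plate and fitted by edgeR with the plate as a block. At T3, none of 7 tested tendon genes was called between *Scx*+ and *Scx*- cells (list median 0.15), while 4 of 5 pluripotent markers were lower in the *Scx*+ cells (list median -2.66), and the part of such cells in the values at T3 was not tested. At T9, *Scx*+ cells had 6 of 9 other tendon genes higher and none lower, with *Kera* at 3.90 ± 0.23 (adjusted p = 5.06e-08) and *Tnmd* at 3.17 ± 0.19 (adjusted p = 5.06e-08), and *Tnmd*+ cells had 7 of 9.

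None of the members was called between *Scx*+ and *Scx*- cells, in which 0.426% of all genes were called at T3 and 1.27% at T9. At T3 the log2 differences were 0.26 ± 0.12 for *Ccn1* (adjusted p = 0.575), -0.45 ± 0.24 for *Ccn2* (adjusted p = 0.724) and 0.12 ± 0.15 for *Ccn4* (adjusted p = 0.925), and *Ccn3* had no UMIs. At T9, *Ccn1* was 707, 766 and 1399 CPM in the *Scx*+ cells of the 3 plates and 631, 573 and 1162 CPM in the *Scx*- cells. Each plate had more in the *Scx*+ cells, and the log2 difference of 0.28 ± 0.07 just missed the threshold (adjusted p = 0.0575), passing it without T9 plate 3. *Ccn2* went opposite ways in the plates, with 173 against 297, 430 against 221 and 487 against 363 CPM, and its 0.22 ± 0.19 (adjusted p = 0.803) turned to -0.14 without plate 2 and to a called 0.68 without plate 1. *Ccn3* was 58.3 against 84.8, 39.0 against 51.4 and 67.1 against 72.6 CPM, lower in the *Scx*+ cells of 3 plates with a log2 difference of -0.35 ± 0.16 (adjusted p = 0.468). *Ccn4* differed by 0.14 ± 0.10 (adjusted p = 0.726). *Fn1* (0.55 ± 0.07, adjusted p = 0.000374) and the TGF-β target *Tgfbi* (0.75 ± 0.10, adjusted p = 0.000583) were higher in the same cells.

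In the *Tnmd* split, *Ccn2* was the member called at T6, where 0.995% of all genes were called. It was at 242 CPM in *Tnmd*+ and 161 CPM in *Tnmd*- cells of plate 1, at 143 and 113 CPM in plate 2, and at 302 and 132 CPM in plate 3. The positive cells were higher in 3 of 3 plates, and the log2 difference was 0.71 ± 0.16 (adjusted p = 0.0413). The call held without plate 1 but was lost without plate 2 (0.89, adjusted p = 0.0846) or plate 3 (0.45, adjusted p = 0.228), after thinning to 3000 UMIs (0.55, adjusted p = 0.653), without the plate as a block and in DESeq2 (0.72, adjusted p = 0.0736). *Tnmd*+ cells had more UMIs, with medians of 10994, 8766 and 12520.5 against 9218, 7521 and 10071 in the 3 plates. At T9, where 1.05% of genes were called, no member was, although *Ccn2* went from 0.40 ± 0.18 (adjusted p = 0.516) to a called 0.77 without plate 1 (adjusted p = 0.0199). *Ccn2* was 189 against 248, 501 against 261 and 585 against 392 CPM, and *Ccn3* was 98.9 against 64.4, 10.1 against 52.6 and 55.3 against 72.2 CPM, so that both changed direction between plates.

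*Acta2*, a target of SRF/MRTF, was used to part the T9 cells at the median level of each plate. SRF/MRTF targets followed, with 10 of 12 higher, among them *Cnn1* (3.65 ± 0.30, adjusted p = 1.86e-08), and 2.50% of all genes were called. Markers of other lineages were lower in the *Acta2*-high cells, with 2 of 2 tested pluripotent, 2 of 2 epithelial and 4 of 6 parietal endoderm markers called (list medians -3.44, -2.87 and -3.18), and their part in the split was not tested. The CCN genes did not reach that call. *Ccn1* was 735 against 600, 702 against 576 and 1352 against 1145 CPM, higher in the *Acta2*-high cells of 3 plates with a log2 difference of 0.29 ± 0.08 (adjusted p = 0.066). *Ccn2* had 0.28 ± 0.11 (adjusted p = 0.239), *Ccn4* 0.25 ± 0.11 (adjusted p = 0.297) and *Ccn3* 0.16 ± 0.17 (adjusted p = 0.771). None of the 18 YAP/TAZ targets tested was called in this split. *Sdc4* (-0.83 ± 0.18, adjusted p = 0.0098), a syndecan that CCN proteins bind, was lower in the *Acta2*-high cells, as was *Lgr5* (-1.29 ± 0.25, adjusted p = 0.00247).

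**Figure D3:**
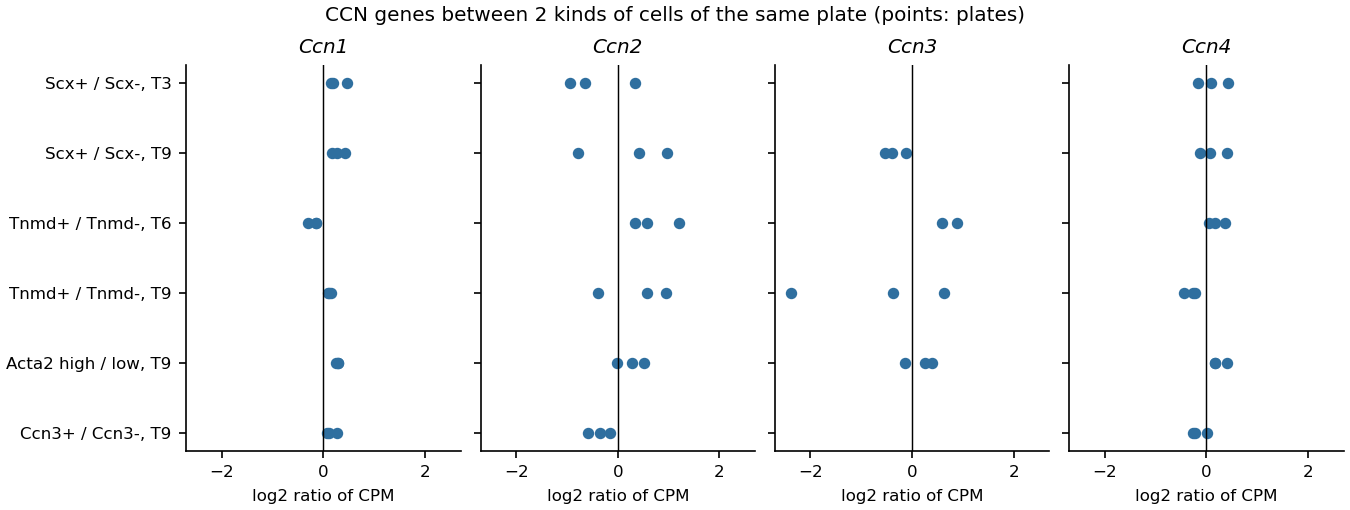
Log2 ratio of CPM between positive (or *Acta2*-high) and negative (or *Acta2*-low) cells of the same plate for *Ccn1*, *Ccn2*, *Ccn3* and *Ccn4*, 1 point a plate. Pairs with a side at 0 UMIs are not drawn. *Ccn1* lies within 0.5 of 0 in every split, and *Ccn2* and *Ccn3* spread to both sides of 0 in several.

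The 215 T9 cells with *Ccn3* (82, 57 and 76 in the 3 plates) were then compared with the other cells of their plates. Of the 215, 94 held a single *Ccn3* UMI. Calls were few, at 0.240% of all genes. No other CCN gene was called, with log2 differences of 0.15 ± 0.08 for *Ccn1* (adjusted p = 0.871), -0.35 ± 0.11 for *Ccn2* (adjusted p = 0.394) and -0.16 ± 0.11 for *Ccn4* (adjusted p = 0.957). Of the tendon list, 3 of 10 were lower in *Ccn3*+ cells and none was called higher. *Tnmd* was 47.1 CPM in *Ccn3*+ and 178 CPM in *Ccn3*- cells of plate 1, 6.17 and 118 CPM in plate 2, and 35.7 and 81.3 CPM in plate 3. *Thbs4*, a thrombospondin of the tendon matrix, was 34.5 against 111, 35.0 against 83.0 and 115 against 200 CPM. All plates had less of both genes in the *Ccn3*+ cells, by -2.02 ± 0.24 for *Tnmd* (adjusted p = 1.49e-05) and -1.17 ± 0.18 for *Thbs4* (adjusted p = 0.000597) on the log2 scale, and the third gene was *Tnc* (-0.73 ± 0.13, adjusted p = 0.00402). *Scx*, at 141 against 233, 96.7 against 120 and 110 against 172 CPM, did not pass the test (-0.59 ± 0.14, adjusted p = 0.0565). *Dcn*, decorin, lay the other way in 3 of 3 plates, at 2859 against 2379, 2621 against 2412 and 3782 against 2558 CPM (0.32 ± 0.08, adjusted p = 0.0804). *Fmod* (0.19 ± 0.15), *Col1a1* (0.06 ± 0.06) and *Col1a2* (0.08 ± 0.06) had more in the *Ccn3*+ cells of 2 plates, and none of them was called. Median UMIs per cell of the *Ccn3*+ and *Ccn3*- cells were 9774.5 and 8914.5, 7383 and 7402, and 7398 and 7115.5.

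The *Tnmd* value rests on few cells. At T9, 67 cells with 5 or more *Tnmd* UMIs (5.84% of cells) held 930 of its 1070 UMIs, and 5 of these cells held *Ccn3*. *Ccn3*+ cells, 18.7% of all, held 66 of the 1070, or 6.17%. Counted by cells and not by UMIs the gap was smaller: *Ccn3* was found in 14.2% of 155 *Tnmd*+ cells and in 19.5% of 992 *Tnmd*- cells, and in 17.6% against 22.4%, 6.67% against 16.1% and 16.7% against 20.1% in the 3 plates. The *Tnmd* difference was not called by DESeq2 (-2.28, adjusted p = 0.954), nor after thinning to 3000 UMIs (-1.39, adjusted p = 0.0609), nor without the plate as a block, and it was called without each plate in turn (-2.40 to -1.65). *Thbs4* was not called after thinning (-0.98), without plate 1 (-0.92) or without the block. *Tnc* lost its call under 4 of 8 alternatives, by DESeq2 (-0.75, adjusted p = 0.0523), after thinning (-0.82, adjusted p = 0.0574), without plate 3 (-0.78, adjusted p = 0.0617) and without the block. Of the parietal endoderm list, 1 of 6 was lower in *Ccn3*+ cells, *Lama1* (-1.77 ± 0.27, adjusted p = 0.000563), and of the epithelial list 1 of 5, *Krt18* (-1.93 ± 0.42, adjusted p = 0.0348). *Krt18* was not called under 6 of 8 alternatives, each of those without 1 plate among them, and *Lama1* under 4 of 8. None of either list was called higher, and their part in the result was not tested.

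**Figure D4:**
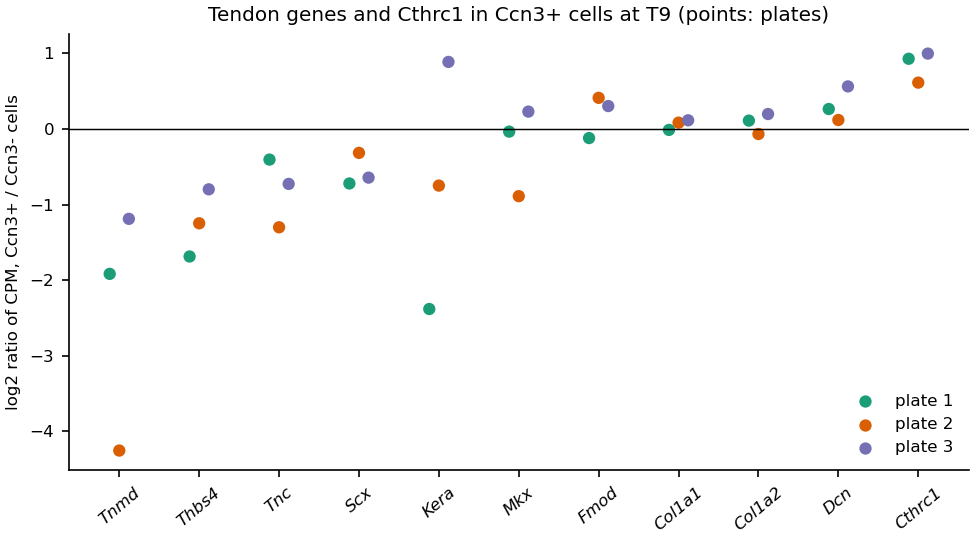
Log2 ratio of CPM between *Ccn3*+ and *Ccn3*- cells at T9 for the 10 tendon genes and *Cthrc1*, 1 point a plate. All 3 points of *Tnmd*, *Thbs4*, *Tnc* and *Scx* lie below 0, those of *Dcn* and *Cthrc1* lie above 0, and those of *Kera* fall on both sides.

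In the bulk samples *Scx* read 103 and 81.3 CPM in the Scx_Wt tendons and 23.1 and 25.1 CPM in the Scx_homoKO tendons, a log2 difference of -1.88 ± 0.17 (edgeR, adjusted p = 0.000429). The deleted stretch is not given in the sources used here, so the reads that remain in Scx_homoKO may lie outside it. *Tnmd* went from 1460 and 1257 to 268 and 264 CPM. All 5 members passed the filter on low counts, and *Ccn6*, with 4 to 12 counts a sample, was near the limit of detection. In bulk tissue, fewer cells of a type and less RNA per cell cannot be told apart. Scaled for exon length, *Ccn2* was the highest member in both genotypes, at 622 ± 7.55 in Scx_Wt and 347 ± 22.6 in Scx_homoKO (reads per exon length, scaled to 1000000, SD, n = 2). In Scx_Wt it was followed by *Ccn1* (232 ± 178) and *Ccn3* (105 ± 50.4), whose samples overlapped, then by *Ccn4* (36.8 ± 0.481) and *Ccn5* (18.7 ± 5.61). In Scx_homoKO the order after *Ccn2* was *Ccn3* (124 ± 9.28), *Ccn1* (102 ± 16.6), *Ccn5* (97.5 ± 29.9) and *Ccn4* (12.2 ± 0.309). Both *Ccn3* samples lay above both *Ccn1* samples, and *Ccn5* overlapped with each of these genes.

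*Ccn4* was at 60.7 and 63.2 CPM in Scx_Wt and at 22.3 and 21.8 CPM in Scx_homoKO. *Ccn5*, nearly absent from the cultured cells, was at 12.8 and 8.81 CPM in Scx_Wt and at 49.2 and 72.0 CPM in Scx_homoKO. The genotypes did not overlap for either gene, and both were called, *Ccn4* at -1.45 ± 0.17 and *Ccn5* at 2.55 ± 0.25 on the log2 scale, under all 8 alternatives as well. That is 1 of 5 members called higher and 1 called lower, beside 1.77% and 2.07% of all 14602 genes tested, and nothing is read from it for the reason given above. Each group held only 2 samples, not paired in the fit, so the spread within a group is poorly known.

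The values of the other members turned partly on 1 wild-type tendon. *Ccn2* was 527 and 550 CPM in Scx_Wt and 347 and 299 CPM in Scx_homoKO, without overlap, at a log2 difference of -0.70 ± 0.18 that was not called, but was without Scx_Wt replicate 1 (-0.78) and by DESeq2 (-0.69). *Ccn1* was 212 and 66.4 CPM in Scx_Wt and 76.7 and 57.3 CPM in Scx_homoKO, so its -0.99 ± 0.39, not called, came to 0.0012 without Scx_Wt replicate 1 and to a called -1.57 without replicate 2. *Ccn3* was 118 and 61.9 CPM in Scx_Wt and 113 and 118 CPM in Scx_homoKO (0.42 ± 0.24), a difference that was called at 0.90 without the same tendon. Markers of other tissues moved too: summed levels in the order Scx_Wt replicate 1 and 2 and Scx_homoKO replicate 1 and 2 were 2369, 2567, 131 and 109 CPM for cartilage, 38000, 68058, 85750 and 89254 CPM for skeletal muscle and 3224, 1261, 813 and 384 CPM for adipocytes. Schwann cell markers stood at 657, 647, 5732 and 46.1 CPM, and smooth muscle markers at 1570, 1054, 773 and 561 CPM. Of the cartilage list 5 of 7 were lower, of the adipocyte list 2 of 6, and of the muscle list none of 10 was called. Their part in the values of the CCN genes was not tested.

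**Figure D5:**
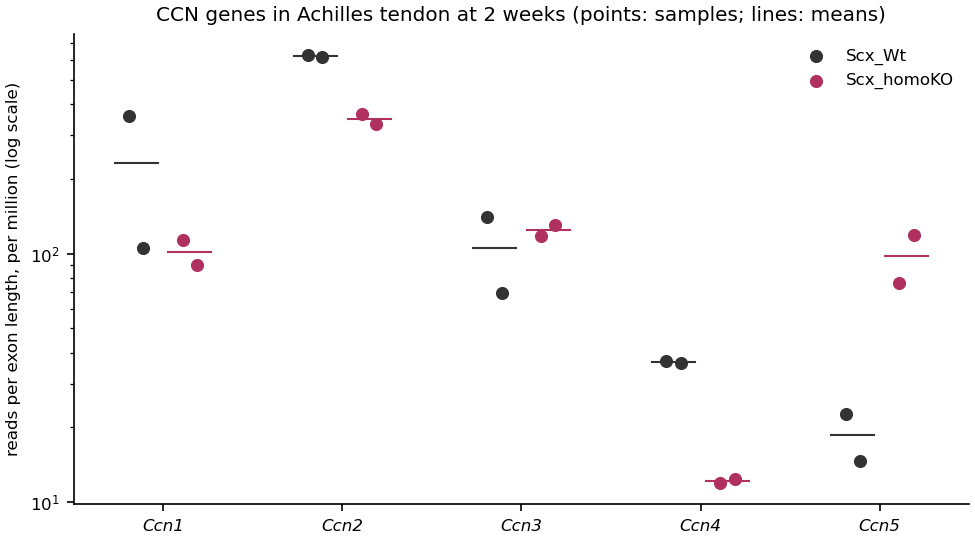
Levels of the 5 CCN genes in Achilles tendon of 2-week-old Scx_Wt and Scx_homoKO mice, in length-scaled reads per 1000000 on a log axis. Points are samples and lines are means of 2. *Ccn4* is lower and *Ccn5* higher in both Scx_homoKO samples, and the Scx_Wt points of *Ccn1* lie far apart, at 358 and 106.

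Some genes of the pathway lists were called between the genotypes, where 1.77% of all genes were called higher and 2.07% lower. Of the YAP/TAZ targets, 1 of 19 was higher, *Ankrd1* (3.42 ± 0.28, adjusted p = 0.000243), a muscle and stretch response gene, and 4 were lower, with *Nuak2* (-2.25 ± 0.46, adjusted p = 0.0288) and *Nt5e* (-1.21 ± 0.17, adjusted p = 0.00496) lowest. *Tead3* (0.97 ± 0.19, adjusted p = 0.0222) was the only one called of 16 Hippo and TEAD genes. *Acta2* (-1.10 ± 0.25, adjusted p = 0.0447) and *Cnn2* (-0.75 ± 0.16, adjusted p = 0.0313) were lower among 13 SRF/MRTF targets, and *Ltbp2* (2.05 ± 0.38, adjusted p = 0.0197), a matrix protein that binds fibrillin, and *Pmepa1* (0.80 ± 0.16, adjusted p = 0.0298) were higher among 10 TGF-β response genes. None of the 12 receptors and partners or the 6 Wnt/β-catenin targets was called. Of the tendon list 5 of 10 were lower and none higher. The knocked-out gene *Scx* is itself on that list and among the 5, so its call follows from the genotype.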

How the data were processed

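The authors aligned CEL-Seq2 reads to GRCm38 with HISAT2 2.2.1 and counted UMIs per gene and well with featureCounts and UMI-tools 1.0.1, and bulk reads with HISAT2 2.0.4 and featureCounts 1.5.0. Per the labels the bulk kit keeps strand. The annotation release is not given in the sources used here. The deposited tables hold raw counts, without normalization. Genes were matched to symbols for 29528 of 29629 and 47224 of 47729 Ensembl identifiers, and 3 entries outside Ensembl, with 0.0642% of UMIs, were left out.

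UMIs of wells with 200 or more genes were summed per plate, or per plate and kind of cell (positive: 1 UMI or more), leaving out 14 wells. Sums and bulk counts were fitted by the edgeR 4.0.16 quasi-likelihood test (R 4.3.3, limma 3.58.1, TMM, filterByExpr), with calls below 0.05 after Benjamini-Hochberg adjustment. DESeq2 1.42.0, size factors, no filter, replicate block, library split, cell filters, thinning (seed 1) and leaving out replicates were the alternatives. The library split followed the study's listing of reads without a feature. The splitting gene was left out of its table. SE is the log2 fold change over the root of F. Other values came from Python 3.11.15, numpy 2.4.6, scipy 1.17.1, pandas 2.3.3 and matplotlib 3.10.9. The scripts were tested on simulated data. Replicates differed by more than counting error (chi-square per gene 3.18 to 57.7 between plates, 37.3 and 22.4 in bulk).

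The members and all lists (6 of pathways, 13 of markers) were chosen with earlier results of these data known. Named genes are the members, the 3 genes most like each over the plates, and up to 2 called genes each way from each pathway list, plus the tendon list for splits, and not all of them are named. *Cthrc1*, *Prg4*, *Actc1*, *Lama1* and *Krt18* were named after their values were seen, the last 2 as members of marker lists.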

Additional observations from a re-analysis of the deposited data

Results flagged for a closer look

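*Ccn1* and *Ccn4* moved in opposite directions between T6 and T9 when *Tnmd*+ and *Tnmd*- cells of the same plate were compared. The mean log2 ratio over plates was -0.20 at T6 and 0.11 at T9 for *Ccn1*, with every T6 plate below 0 and every T9 plate above it. For *Ccn4* it was 0.19 at T6 and -0.32 at T9, with every plate of each time point on its own side of 0. The difference between the time points, tested by edgeR over all genes as an interaction, was 0.34 ± 0.12 for *Ccn1* and -0.50 ± 0.16 for *Ccn4*, and neither passed (adjusted p = 0.997 for both). With cells thinned to 3000 UMIs, *Ccn4* at T6 turned to -0.072.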

How the results depend on the processing

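Of the members' values under all alternatives, 416 kept direction and side of the threshold, 16 gained a call, 8 lost it and 6 turned direction. Of the list genes' values, 609 kept both, 2 gained and 128 lost the call. The turned values were *Ccn4* in the *Tnmd* split at T6 after thinning (-0.072) and 5 on leaving out 1 library. Their ranges were -1.57 to 0.0012 for *Ccn1* in bulk (turned without Scx_Wt replicate 1), -0.054 to 0.26 for *Ccn4* in the *Scx* split at T3 (plate 2), -0.14 to 0.68 for *Ccn2* (plate 2) and -0.021 to 0.26 for *Ccn4* (plate 3) in that at T9, and -1.04 to 0.27 for *Ccn3* in the *Tnmd* split at T9 (plate 2). Calls of T3 and T9 against T0 stayed within 1.5 times of 4439 and 6050 under every alternative.

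Other counts of called genes moved by more, and the cause was not tested. T6 against T3 (567) gave 899 by DESeq2, 1010 without the filter, 1483 with the library split, 264 with only the 6 plates and 291 to 890 without single plates (303 and 326 without T3 plates 1 and 3, 291, 890 and 300 without T6 plates 1, 2 and 3). T9 against T6 (217) gave 579, 684, 813, 45 and 35 to 852 in the same order (48, 675 and 44 without T6 plates 1, 2 and 3, 35, 71 and 852 without T9 plates 1, 2 and 3), and the bulk comparison (560) gave 1415 without the filter and 380 to 666 without single samples. The *Scx* split at T3 (38) gave 22 by DESeq2, 115 without the filter, 62 thinned and 0 to 51 without single plates, the 0 without T3 plate 2. At T9 (130) the same gave 59, 261, 71 and 46 to 282 (46 without plate 1, 282 without plate 3). The *Tnmd* split gave 66, 215 and 27 (without plate 2) to 272 (without plate 3) at T6 (106) and, at T9 (106), 210 without the filter and 63 (without plate 1) to 114 without single plates. The *Acta2* split (249) gave 127, 455 and 157 thinned, and the *Ccn3* split (24) gave 4, 61, 9 and 6 to 77 (11, 77 and 6 without plates 1, 2 and 3). Without the filter, the median log2 of all genes moved to between -0.29 and 0.23 in the splits.

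Plate numbers did not pair the plates: deviations of equal numbers correlated between -0.56 and 0.50, 14 of 36 were best with their own number, and the bulk value was 0.0845. The replicate block gave 113 calls for T9 against T6 and 1108 in bulk, where *Ccn1* (-0.81) and *Ccn2* (-0.70) were then called. Without the plate as a block the splits gave 7 (*Scx*, T3), 2 (*Scx*, T9), 0 (*Tnmd*, T6), 1 (*Tnmd*, T9), 20 (*Acta2*) and 0 (*Ccn3*).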

Other observations

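Of the 24 genes called between *Ccn3*+ and *Ccn3*- cells at T9, 3 outside the lists are named here, chosen after their values were seen. *Cthrc1*, a secreted collagen triple helix repeat protein, was 425 against 223, 263 against 172 and 532 against 266 CPM in the 3 plates. It was higher in the *Ccn3*+ cells of all 3, by 0.86 ± 0.11 on the log2 scale (edgeR, adjusted p = 2.59e-05), and was called under 7 of 8 alternatives, the exception being the fit without the plate as a block. *Prg4*, lubricin of gliding surfaces, was lower (-2.94 ± 0.43, adjusted p = 0.000309), as was the cardiac actin gene *Actc1* (-2.86 ± 0.34, adjusted p = 1.49e-05), and each was called under 4 of 8 alternatives.

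With cells of each plate sorted by both *Scx* and *Tnmd*, *Ccn3* at T9 averaged 32.1 ± 25.8 CPM in the 102 *Scx*+/*Tnmd*+ cells, 60.9 ± 14.2 CPM in 345 *Scx*+/*Tnmd*- cells, 104 ± 84.0 CPM in 53 *Scx*-/*Tnmd*+ cells and 64.6 ± 8.87 CPM in 647 *Scx*-/*Tnmd*- cells (SD, n = 3 plates). *Ccn2* averaged 483 ± 298 CPM in the first and 293 ± 58.2 CPM in the last of these. The spread between plates in the classes with *Tnmd* is as wide as the differences.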
